A study of Rattus norvegicus with 4 samples.

Results

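The C/EBP factors are transcription factors of the basic leucine zipper class, named for the CCAAT/enhancer sequences they bind, and CHOP, the product of Ddit3, is their stress-induced relative. The set was taken by gene symbol and holds 6 genes, Cebpa, Cebpb, Cebpd, Cebpe, Cebpg and Ddit3. Of these, 4 had a row with that single symbol, 1 row each, among 13215 named genes and 19403 rows in all. Cebpd and Cebpg had no such row and were not analysed here.

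Expression was measured in surface colonocytes, the absorptive cells at the luminal face of the gut, shaken off the distal colon of 4 Wistar rats aged 12 weeks. Of these, 2 rats were given aldosterone and 2 were given vehicle. All 4 had both adrenal glands removed 4 days earlier and drank 0.9% NaCl, so the vehicle rats are hormone-depleted animals, not intact ones. The aldosterone rats were treated for 2 h with 1 injection under the skin of 50 µg per 100 g of body weight, followed by release from an implanted pump at 10 µg/kg each hour, and their cells were shaken off over 40 min in 100 nM aldosterone. The vehicle rats had the same procedures without the hormone, with polyethylene glycol 300 in the pump. The labels describe separate animals, 1 exon array per rat, and the small number of arrays limits the precision.

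C/EBP proteins bind DNA as dimers, with themselves or with each other. C/EBP alpha is known for cell cycle exit and differentiation, C/EBP beta for acute-phase, inflammatory and hormone responses, and C/EBP epsilon for the maturation of granulocytes. CHOP pairs with other C/EBPs and in doing so keeps them from many of their usual sites. It is induced by ATF4 in the integrated stress response, a pathway that slows protein synthesis when the endoplasmic reticulum is overloaded or amino acids run short. In several tissues corticosteroids induce Cebpb and Cebpd, and in the intestinal epithelium of rats C/EBP beta and delta are known to act in the response to glucocorticoids and cytokines.

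The promoters of Cebpb and Ddit3 are shown because these were the members whose aldosterone and vehicle arrays did not overlap. Both are RefSeq sequences of the GRCr8 rat assembly and run from 250 bases before to 50 bases after the annotated start, 5′ to 3′ on the strand of the gene. Cebpb lies at chr3:176816755-176817054 on the plus strand and Ddit3 at chr7:65001445-65001744 on the plus strand. Capitals mark the matches to the motifs given after the sequences.
Cebpb: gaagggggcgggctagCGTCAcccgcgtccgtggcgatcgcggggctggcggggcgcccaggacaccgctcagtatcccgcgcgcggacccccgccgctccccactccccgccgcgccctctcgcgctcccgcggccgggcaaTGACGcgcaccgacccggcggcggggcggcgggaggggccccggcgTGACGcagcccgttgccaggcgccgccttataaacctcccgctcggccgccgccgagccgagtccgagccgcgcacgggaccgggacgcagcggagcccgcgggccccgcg
Ddit3: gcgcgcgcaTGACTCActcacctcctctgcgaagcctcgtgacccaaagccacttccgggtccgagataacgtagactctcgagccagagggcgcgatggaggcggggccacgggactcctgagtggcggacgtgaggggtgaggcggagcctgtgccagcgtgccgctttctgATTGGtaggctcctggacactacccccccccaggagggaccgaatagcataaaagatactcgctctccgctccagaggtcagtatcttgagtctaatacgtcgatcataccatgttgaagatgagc

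Both strands of these windows were searched. The Cebpb promoter held TGACG, a partial cyclic AMP response element, 3 times, at -234, -107 and -61 counted from the start, the first of them on the opposite strand. TGACG occurs on either strand in 21.2% of 33469 RefSeq promoters of the same length. The Ddit3 promoter held TGACTCA, an AP-1 site, at -241, and CCAAT on the opposite strand at -76. These letters occur in 4.63% and 37.5% of promoters, and both motifs were added to the search after the sequences had been seen. Neither promoter held the corticosteroid receptor element (AGAACA, any 3 bases, then TGTTCT), its single arm AGAACA, the C/EBP motifs TTGCGCAA and TTGCNNAA, the C/EBP-ATF motif TGATGCAA, or the full cyclic AMP element TGACGTCA. The shares of all promoters with these were 0.0149%, 20.7%, 0.170%, 10.6%, 0.795% and 1.83% in the same order. TTGCNNAA contains TTGCGCAA, and TGACGTCA contains TGACG. The windows cover only the bases next to the start, and GC content was 81.0% for Cebpb and 60.0% for Ddit3, against a median of 51.7% over all promoters.

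The question of the comparison was which of these factors differ between colonocytes of aldosterone and of vehicle rats. Cebpb stood higher with aldosterone, Ddit3 stood lower, and Cebpa and Cebpe overlapped between the groups. None of the 4 passed the threshold of the test over all rows, an adjusted p of 0.05 in limma, a linear model that borrows the spread of other rows, with Benjamini-Hochberg adjustment over 19403 rows. That test called 0 rows of the table (0% of those tested). Its unadjusted p was under 0.05 in 879 rows, 2.19% of all rows on the higher and 2.34% on the lower side. With a prior spread that followed the expression level the test called 21 rows (0.108%), and 0 of the 4 members were among them. Values are log2 expression values made by RMA, which corrects background and makes the arrays' probe distributions alike, and differences are aldosterone minus vehicle on that scale. Fewer cells of a type and less RNA per cell cannot be told apart in such bulk samples.

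Cebpb (row 7235544) read 6.40 and 6.23 in the aldosterone rats, against 5.59 and 5.04 in the vehicle rats. Both aldosterone values lay above both vehicle values, and the gap between the nearest pair was 0.64. The group means were 6.32 ± 0.121 with aldosterone and 5.32 ± 0.390 with vehicle (SD, n = 2 each). The difference was 1.00, or 2.00-fold, with a 95% interval of the moderated fit from 0.39 to 1.61, or from 0.29 to 1.71 with the prior that followed the level. Its unadjusted p in limma was 0.0103 and its adjusted p 0.837, or 0.690 with the prior that followed the level. A difference at least as large in size was found in 157 (3.26%) of the 4815 rows whose mean reached 4. The active and the inhibitory form of C/EBP beta are translated from the same transcript at different start codons, so the row does not tell them apart.

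Ddit3 (row 7315869) read 5.72 and 5.43 in the aldosterone rats, against 6.78 and 6.24 in the vehicle rats. Both aldosterone values lay below both vehicle values, with a gap of 0.52. The means were 5.58 ± 0.199 with aldosterone and 6.51 ± 0.386 with vehicle (SD, n = 2 each). The difference was -0.93, a level 1.91-fold lower, with a 95% interval from -1.58 to -0.29, or from -1.65 to -0.22 with the prior that followed the level. The unadjusted p in limma was 0.0155 and the adjusted p 0.884, or 0.811 with the prior that followed the level. Among the rows whose mean reached 4, 3.86% differed by as much in size.

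Cebpa (row 7030644) read 8.31 and 8.10 in the aldosterone rats, against 8.53 and 8.12 in the vehicle rats. The groups overlapped, and the difference of -0.12 was smaller than the 0.40 between the vehicle arrays. Its 95% interval ran from -0.63 to 0.39, or from -0.74 to 0.50 with the prior that followed the level, and the adjusted p in limma was 1.00. Without vehicle replicate 1 the difference was 0.083, so its direction rested on that array. Cebpa and Cebpg are neighbours on chromosome 1 of the RefSeq annotation, and the level of Cebpg was not analysed here.

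Cebpe (row 7138064) read 2.55 and 1.97 in the aldosterone rats, against 2.00 and 1.68 in the vehicle rats. The groups overlapped by 0.029, and 3 of the 4 values lay below 2.35, the median of all row means, close to the floor of the arrays. The difference was 0.42 with an interval from -0.27 to 1.11 and an adjusted p of 1.00 in limma, and no fold is given at this level. Of 12 alternative settings that kept the row, 4 gave an interval above 0. These were the prior that followed the level (0.028 to 0.81, adjusted p 0.991 in limma), the replicate block (0.054 to 0.79, adjusted p 0.708 in limma), both together (0.18 to 0.66, adjusted p 0.383 in limma) and leaving out aldosterone replicate 2 (0.091 to 1.33). Under the others the interval included 0, as with quantile normalization (-0.49 to 1.24) and with the arrays centred on their medians (-0.5 to 1.22). Neutrophil and myeloid markers, which mark the cells where Cebpe is known to act, were also low. Of 11 measured, 0 had a mean of 4 or more and 8 lay below the median of all row means. Their mean log2 level was 2.15 and 2.32 in the aldosterone rats and 2.21 and 2.19 in the vehicle rats. The granule protein genes Mpo, Ltf, Camp and Ngp had means of 1.93, 1.88, 2.20 and 1.82 over the 4 arrays. Lyz2 and Ptprc stood higher, with means of 3.61 and 2.64, and overlapped between the groups, with differences of 0.49 and -0.38.

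**Figure D1:**
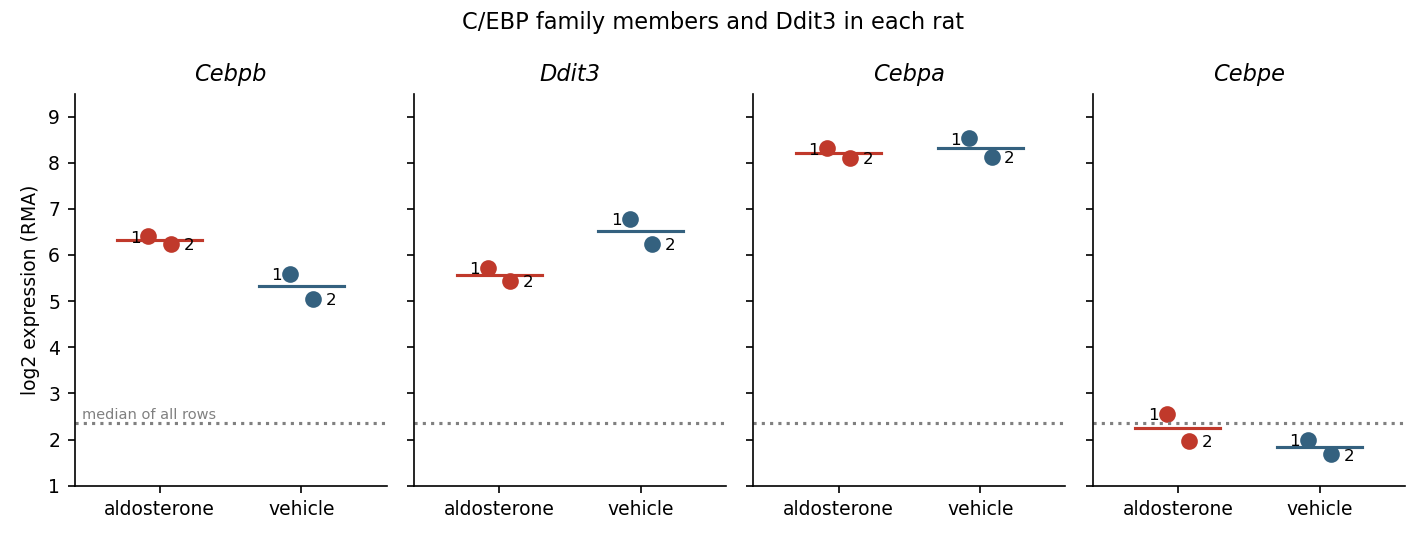
Log2 expression of the 4 measured members in each rat, aldosterone left and vehicle right in every panel. Points are single rats with their replicate number, bars are group means (n = 2), and the dotted line is the median of all row means, 2.35. The aldosterone points lie above the vehicle points for Cebpb and below them for Ddit3, while those of Cebpa and Cebpe overlap.

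Across the table, both aldosterone values lay above both vehicle values in 16.7% of rows and below them in 11.1%. Among the 4 members, 1 was separated upward (Cebpb) and 1 downward (Ddit3). An unadjusted p under 0.05 was found in 2.19% of rows on the higher and 2.34% on the lower side, and again Cebpb and Ddit3 were the members in these counts. With 4 members, these shares describe the set and are not a test of it. The median difference of the members was 0.15, against 0.024 over all rows. It was -0.046 without aldosterone replicate 1, 0.35 without aldosterone replicate 2, 0.33 without vehicle replicate 1 and -0.030 without vehicle replicate 2, so its sign was not stable.

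Cebpb and Ddit3 were set against each other within each array, where a shift shared by all rows of an array cancels. Levels of different rows are not comparable, so only the difference of this contrast between the groups was read. Cebpb minus Ddit3 was 0.69 and 0.80 in the aldosterone rats, against -1.19 and -1.20 in the vehicle rats. The SD of the contrast was 0.0789 with aldosterone and 0.00436 with vehicle (n = 2 each). That of Cebpb alone was 0.121 and 0.390, and that of Ddit3 alone 0.199 and 0.386, in the same order. Both genes differed by 0.55 between the vehicle arrays, and an SD of 2 rats is imprecise. The contrast differed by 1.94 between the groups, a 3.83-fold higher ratio of Cebpb to Ddit3 with aldosterone. Cebpb minus Cebpa was -1.91 and -1.87 in the aldosterone rats, against -2.93 and -3.08 in the vehicle rats, a difference of 1.12. Cebpa minus Ddit3 was 2.59 and 2.67 in the aldosterone rats, against 1.74 and 1.89 in the vehicle rats, a difference of 0.82. The contrasts with Cebpe differed between the groups by 0.54 to 1.36 and rest on a row near the floor.

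The 6 contrasts between members share 4 genes, and those with Cebpe take in its low row. Cebpb minus Ddit3 could not overlap between the groups, since each gene already stood apart in the opposite direction. Each contrast had an exact two-sided permutation p of 0.333, and the Benjamini-Hochberg value over the 6 was 0.333 as well. The exact permutation test of 2 rats against 2 cannot give a p below 0.333. All 4 members read higher in the rat numbered 1 than in the rat numbered 2 of both groups, a pattern found in 18.5% of all rows and in 40.1% of those whose mean reached 4. The labels do not say that the numbers mark a shared batch or day.

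**Figure D2:**
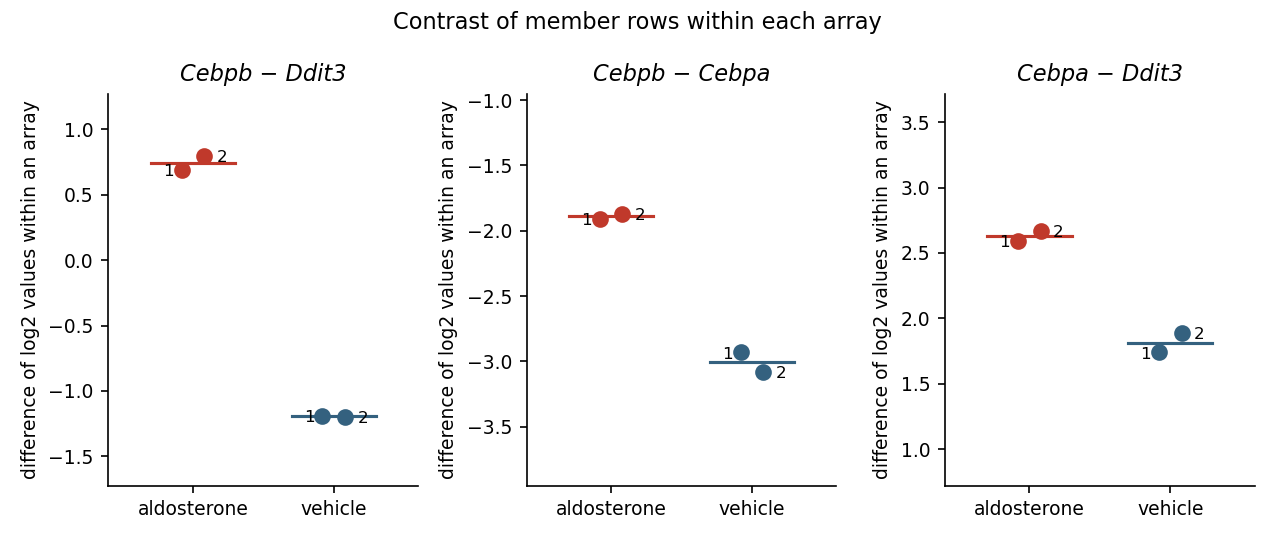
Difference of the log2 values of a pair of member rows within each array, aldosterone left and vehicle right. Points are single rats with their replicate number and bars are group means (n = 2), and every panel spans 3 log2 units. The groups stand apart in all 3 panels, most widely for Cebpb minus Ddit3, with a difference of 1.94. That contrast is the sum of the others shown and could not overlap, so the panels are not separate evidence.

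The direction of Cebpb and Ddit3 held under each of the 15 alternative settings. The difference of Cebpb ran from 0.73 to 1.28 and that of Ddit3 from -1.21 to -0.66, in both cases with the extremes reached when a vehicle array was left out. The adjusted p in limma ran from 0.479 to 1.00 for Cebpb and from 0.508 to 1.00 for Ddit3.

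**Figure D3:**
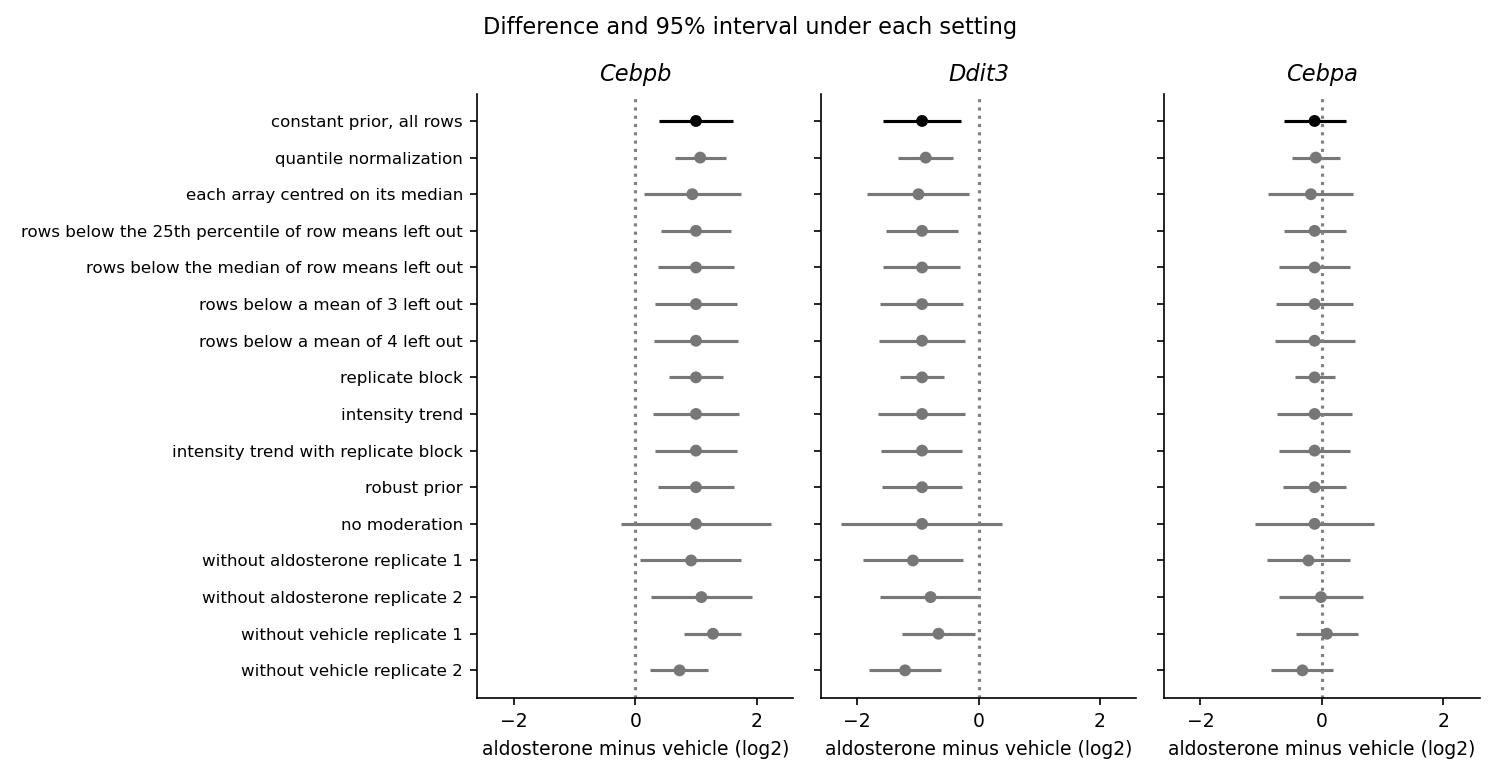
Difference between aldosterone and vehicle (log2) for Cebpb, Ddit3 and Cebpa under the constant prior over all rows (black) and 15 alternatives (grey), with 95% intervals as lines. All points of Cebpb lie above 0 and all points of Ddit3 below 0, whereas Cebpa crosses 0 without vehicle replicate 1, and without moderation the intervals of all 3 include 0.

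The genes most like each member over the 4 arrays were found by the Euclidean distance between log2 values centred on each row's mean, among 4143 other named rows with a mean of 4 or more. This describes 4 points per gene and carries no test. Closest to Ddit3 were Zfp36l1, which encodes an mRNA decay factor (distance 0.0640), and Klf10, a Krüppel-like factor gene induced by TGF beta (0.0856). Cxhxorf38 (0.132) and Gnat2, a transducin subunit gene (0.154), followed. Cxhxorf38 reached a mean of 4 only through the vehicle arrays, at 4.66 and 4.16, against 3.73 and 3.47 with aldosterone. Zfp36l1 read 7.20 and 6.93 in the aldosterone rats, against 8.32 and 7.80 in the vehicle rats. Klf10 read 6.80 and 6.63 with aldosterone, against 7.92 and 7.42 with vehicle. Closest to Cebpb were Ppat, an enzyme gene of purine synthesis (distance 0.208), Nlrp6, an inflammasome gene of the gut epithelium (0.242), the co-chaperone gene Dnajb1 (0.248) and Ndst1, a heparan sulfate enzyme gene (0.259). Ppat read 7.60 and 7.58 in the aldosterone rats, against 6.67 and 6.16 in the vehicle rats.

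Closest to Cebpa were Chic2 (distance 0.00981), Atf4 (0.0280), Mfsd14b (0.0328) and Dctn4, a dynactin subunit gene (0.0333). Atf4 encodes the activator of Ddit3 in the integrated stress response, and its row read 9.81 and 9.58 in the aldosterone rats, against 10.00 and 9.63 in the vehicle rats. The groups overlapped, with a difference of -0.12 and an interval from -0.61 to 0.38. Ddit3 lay at a distance of 0.823 from Cebpa. A part of Atf4 in the difference of Ddit3 was not tested. ATF4 is controlled mainly at translation, which the arrays do not measure.

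Of 12 measured basic leucine zipper partners and relatives, 0 were separated upward and 2 downward, and 0 passed the adjusted threshold under either prior. Over all rows, 16.7% were separated upward and 11.1% downward. Atf3, a stress-induced repressor that can pair with CHOP, read 8.89 and 9.15 in the aldosterone rats, against 10.32 and 10.31 in the vehicle rats. Its aldosterone values both lay below the vehicle values, with a difference of -1.30, an interval from -1.66 to -0.94 and an adjusted p of 0.437 in limma, or 0.0819 with the prior that followed the level. Fos read 9.75 and 10.24 with aldosterone, against 10.50 and 10.34 with vehicle, a difference of -0.43 without overlap. The groups overlapped for Jun (difference -0.12), Batf3 (0.16) and Nfil3 (-0.29). The list median was -0.11, or -0.034 without aldosterone replicate 2 and -0.019 without vehicle replicate 1.

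Genes that control C/EBP expression and activity had a median difference of -0.16 over 16 measured, with 0 past the adjusted threshold. Of these, 0 were separated upward and 3 downward, against 16.7% and 11.1% of all rows. Trib1 encodes a pseudokinase that brings C/EBP alpha to the ubiquitin ligase COP1. It read 8.91 and 8.63 in the aldosterone rats, against 9.48 and 9.21 in the vehicle rats, a level 1.49-fold lower with an unadjusted p of 0.0251 and an adjusted p of 0.945 in limma. Socs3, the feedback inhibitor of the IL-6 receptor pathway that induces Cebpb, read 2.65 and 2.77 with aldosterone, against 3.55 and 3.04 with vehicle, at levels near the floor. The glucocorticoid receptor gene Nr3c1 read 5.30 and 5.43 with aldosterone, against 5.69 and 5.66 with vehicle (difference -0.31). The mineralocorticoid receptor gene Nr3c2 overlapped, at 9.39 and 9.14 against 8.95 and 9.37. The acetyltransferase genes Crebbp and Ep300, coactivators of C/EBP beta, overlapped too, with differences of 0.30 and 0.52. The list median was 0.17 without aldosterone replicate 2, 0.10 without vehicle replicate 1 and -0.37 without vehicle replicate 2.

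For scale, the corticosteroid-induced genes Sgk1 and Tsc22d3 were 3.87-fold and 5.09-fold higher in the same aldosterone rats. Their adjusted p in limma was 0.000558 and 0.00258 with the prior that followed the level, past the threshold, and 0.332 each with the constant prior.

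Among genes around CHOP in the integrated stress response, members lay on both sides. Of 17 measured, 2 were separated upward and 1 downward, against 16.7% and 11.1% of all rows. The list had 0 genes past the adjusted threshold and a median difference of -0.12. That median was 0.064 without aldosterone replicate 2, 0.094 without vehicle replicate 1 and -0.30 without vehicle replicate 2. Eif2ak3 encodes PERK, the kinase that senses endoplasmic reticulum stress upstream of ATF4. It read 6.79 and 6.81 in the aldosterone rats, against 7.80 and 7.14 in the vehicle rats, lower with aldosterone by a gap between groups smaller than the 0.65 between the vehicle arrays. Ppp1r15a, a target of CHOP that restores translation, overlapped at 6.59 and 6.25 against 7.23 and 6.54 (difference -0.47). Vldlr, a lipoprotein receptor gene induced through ATF4, read 7.53 and 5.88 with aldosterone, against 5.84 and 5.44 with vehicle. Its difference of 1.07 had an interval from -0.59 to 2.72, since the aldosterone rats lay far apart. Ddit4, an mTORC1 inhibitor gene known to be induced by both stress and glucocorticoids, read 11.48 and 11.41 with aldosterone, against 11.30 and 10.76 with vehicle (difference 0.41). Cth overlapped (difference 0.16).

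Of 10 measured genes in the IRE1 and ATF6 arms of the endoplasmic reticulum stress response, 2 were separated upward and 2 downward. The shares over all rows were 16.7% and 11.1%. These arms had 0 genes past the adjusted threshold and a median difference of -0.0068. With 1 array left out at a time that median lay between -0.17 and 0.16, below 0 only without aldosterone replicate 2. Herpud1, a component of the degradation machinery of the endoplasmic reticulum, read 9.40 and 9.28 in the aldosterone rats, against 8.89 and 8.69 in the vehicle rats. It was 1.46-fold higher, with an unadjusted p of 0.0114 and an adjusted p of 0.853 in limma. Edem1, also of that machinery, was separated upward (difference 0.34). The ubiquitin ligase gene Syvn1 (-0.41) and the chaperone gene Hspa5 (-0.19) were separated downward. The Hspa5 values were 9.42 and 9.42 with aldosterone, against 9.67 and 9.55 with vehicle. Sdf2l1 lay near the floor, with a difference of 0.14.

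Acute-phase and inflammatory genes known as C/EBP targets, chiefly in liver and macrophages, were mostly near the floor. Of 20 measured, 12 lay below the median of all row means and 3 had a mean of 4 or more, of which Il1rn reached it only through the vehicle arrays. Lbp, which encodes the lipopolysaccharide-binding protein, read 5.43 and 5.32 in the aldosterone rats, against 9.14 and 7.30 in the vehicle rats. Both aldosterone values lay far below the vehicle values, and the vehicle rats differed from each other by 1.84. The difference was -2.85, a level 7.20-fold lower, with an interval from -4.64 to -1.06. The adjusted p in limma was 0.853, or 0.0525 with the prior that followed the level.

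Il1rn, which encodes the interleukin-1 receptor antagonist, read 3.43 and 3.40 in the aldosterone rats, against 5.16 and 4.55 in the vehicle rats. It was also separated downward, with a difference of -1.44, an unadjusted p of 0.00319 and an adjusted p of 0.711 in limma. Cd14, the co-receptor for lipopolysaccharide and the only other gene of this list with a mean of 4 or more, overlapped at 11.13 and 11.33 against 10.86 and 11.17. The fibrinogen gene Fga, Il1b and Hamp lay near the floor, with differences of 0.33, -0.18 and 0.41. Over the whole list 4 genes were separated upward and 3 downward, against 16.7% and 11.1% of all rows. Its median difference was 0.051, with 0 genes past the adjusted threshold. That median was -0.017 without aldosterone replicate 2, -0.017 without vehicle replicate 1 and -0.0064 with the arrays centred on their medians. Taken over Lbp, Il1rn and Cd14 alone, the 3 genes with a mean of 4 or more, the median was -1.44. This is the difference of Il1rn itself. The list median near 0 was therefore set by the genes at lower levels. The genes separated upward had means of at most 2.36, so the counts in that direction come from rows at or near the floor.

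Metabolic C/EBP targets of liver and fat were separated upward in 4 and downward in 2 of 14 measured. Of the 14, 7 lay below the median of all row means and 5 had a mean of 4 or more. Over all rows these shares were 16.7% and 11.1%. The targets had a median difference of 0.079 and 0 past the adjusted threshold. That median was -0.022 without aldosterone replicate 2 and -0.00064 without vehicle replicate 1. Pparg, the nuclear receptor gene that C/EBP beta induces in fat cell differentiation, read 4.94 and 5.14 in the aldosterone rats, against 5.41 and 5.87 in the vehicle rats (difference -0.60, unadjusted p 0.0397 and adjusted p 1.00 in limma). Srebf1, a regulator of lipid synthesis, was also separated downward (-0.39). Pck1, the enzyme gene of gluconeogenesis with a C/EBP site in its promoter in rat liver, read 9.32 and 10.14 with aldosterone, against 9.11 and 9.13 with vehicle. The insulin receptor gene Insr was separated upward (difference 0.24), and Ppargc1a overlapped (0.40). Besides Pck1 and Insr, the genes separated upward had means of at most 1.88, near the floor.

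Among 8 measured genes of growth arrest, a role shared by C/EBP alpha and CHOP, 2 were separated upward and 0 downward. Over all rows these shares were 16.7% and 11.1%. The growth arrest genes had 0 past the adjusted threshold and a median difference of 0.0076. That median was 0.16 without vehicle replicate 1, -0.031 without vehicle replicate 2 and -0.050 with the arrays centred on their medians. Cdkn1a, which encodes the cell cycle inhibitor p21, read 11.27 and 10.83 in the aldosterone rats, against 10.67 and 10.50 in the vehicle rats. Gadd45g, a stress sensor gene, read 8.73 and 8.91 with aldosterone, against 8.57 and 8.13 with vehicle. Their unadjusted p in limma was 0.0675 and 0.0713. Ccnd1, Myc and Gadd45b overlapped.

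**Figure D4:**
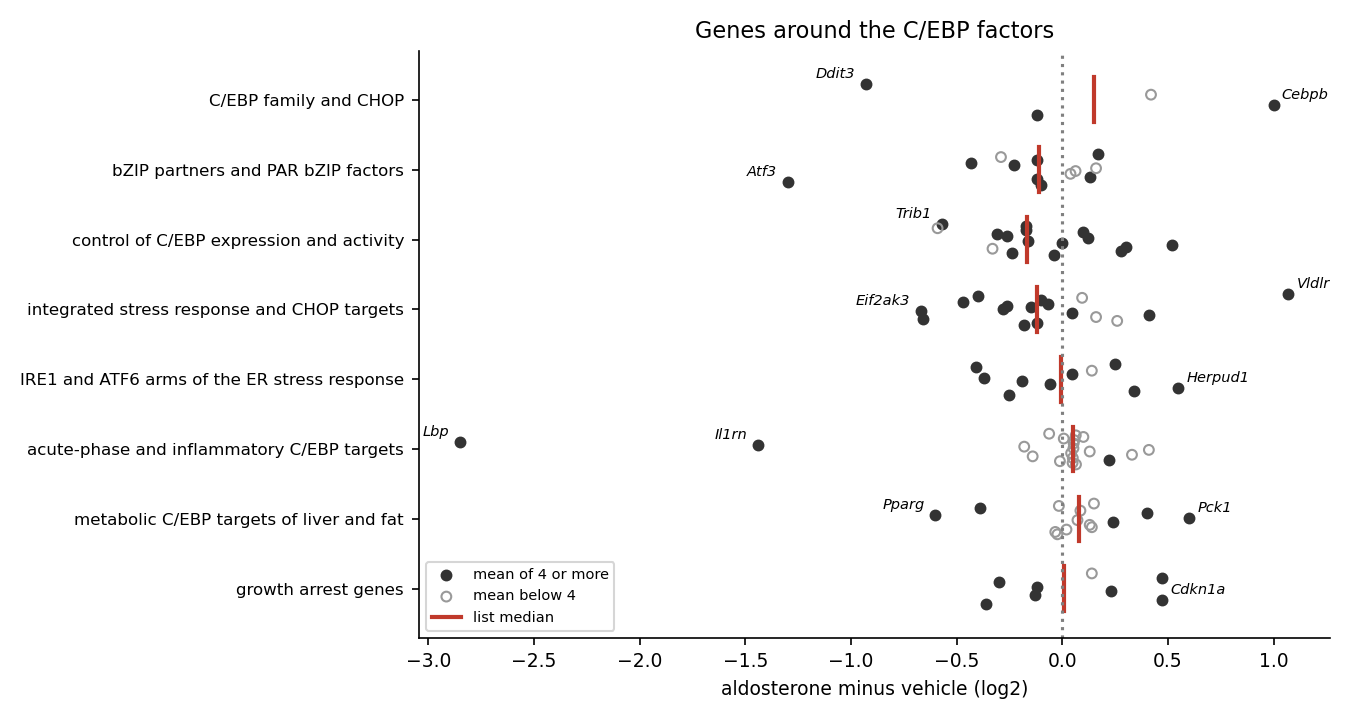
Difference between aldosterone and vehicle (log2) for every measured gene of 8 lists, with filled points for rows with a mean of 4 or more, open points for lower rows and a bar at each list's median. List medians lie between -0.16 and 0.15, and Lbp, Il1rn and Atf3 lie farthest below 0.

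The cells carried the markers of surface colonocytes. Of 7 measured, 6 lay above 9 in every array, up to a mean of 12.40 for the chloride exchanger gene Slc26a3. The sodium-proton exchanger gene Slc9a3 read 8.39 and 3.44 in the aldosterone rats, against 2.48 and 3.99 in the vehicle rats, so that its mean of 4.57 reached 4 only through 1 aldosterone array. Markers of crypt and proliferating cells (5 measured), enteroendocrine cells (5), lymphoid cells (3) and stroma and vessels (4) had 0 genes with a mean of 4 or more. Of 3 goblet markers measured, Tff3 and Agr2 had a mean of 4 or more, and Tff3 read 9.44 and 11.30 in the aldosterone rats, against 11.12 and 10.74 in the vehicle rats. Surface markers were higher with aldosterone in 6 of 7, Slc9a3 included, of which 3 were separated, with a median of 0.29, or 0.13 without vehicle replicate 1. Slc26a3 read 12.75 and 12.61 in the aldosterone rats, against 11.96 and 12.30 in the vehicle rats. Crypt markers were higher in 5 of 5, of which 3 were separated, at mean levels of at most 3.04. Over all rows, 16.7% were separated upward. The part of these marker differences in the values of Cebpb and Ddit3 was not tested.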

How the data were processed

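The authors deposited 1 table of log2 expression values with a row per transcript cluster, the array's probe group for a gene, and a column for each of 4 arrays. The tools named per the submitters' processing notes are RMA, Partek and the Expression Console of Affymetrix. For versions, roles and the genome build, nothing was given in the sources used here. That the scale is log2 was read from the range of the deposited values, 1.36 to 13.7. Of 19403 rows, 13327 had 1 gene symbol in the platform annotation, 620 had several and 5456 had none here. Members are rows with a single matching symbol.

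Both groups entered a linear model on treatment alone, fitted in limma 3.58.1 (R 4.3.3) with lmFit, then eBayes with a constant prior, giving two-sided p-values, with Benjamini-Hochberg adjustment over all rows and a threshold of 0.05. Contrasts between members used exact permutation over the 4 rats. The fit was tested on simulated data. There, intervals with the constant prior held the true size less often than their nominal level, and most differences as large as that of Cebpb were not called. Intervals with the prior that followed the level held it at about the nominal level. The simulated spread followed the level alone, as that prior assumes. The simulation therefore cannot tell which prior gives the better intervals in the real rows. The members and gene lists, written from general knowledge, were chosen with earlier results of these data known. Lists are described by counts and medians. A gene with several rows was taken at its row of highest mean. Named are all members, up to 5 genes per list with the smallest unadjusted p, 9 genes by name, and the 4 genes most like each member with a mean of 4 or more. Genes named beyond this rule were chosen after their values were seen: Mpo, Cd14, Asns, Chac1, Nupr1 and Eif2s1. Alternatives were quantile normalization, centring, 4 filters on low rows, the replicate block, leaving out each array, other priors and no moderation. Tables and plots used Python 3.11.15, pandas 2.3.3 and matplotlib 3.10.9.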

Additional observations from a re-analysis of the deposited data

How the results depend on the processing

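The number of rows past an adjusted p of 0.05 in limma was 0 in the fit reported above. It was 1 with rows below the median of row means left out, 1 when only rows whose mean reached 3 were kept, 12 when only those whose mean reached 4 were kept, 21 with the intensity trend and 6 with the intensity trend and the replicate block. It was 0 under the other settings, and a member passed in none of them. Leaving out 1 array at a time gave 0 rows each time. The difference of Cebpa was -0.32 to 0.083 with 1 array left out, and it reversed without vehicle replicate 1. That of Cebpe was 0.13 to 0.71, and its row was removed by the filters at the median and at means of 3 and 4. With the replicate block the adjusted p in limma was 0.629 for Cebpb, 0.629 for Ddit3, 0.929 for Cebpa and 0.708 for Cebpe, and the count of rows called stayed at 0. The replicate numbers are not said to pair the rats, and the deviations of same-numbered rats correlated at 0.0934 over the rows whose mean reached 4. Without moderation the unadjusted p was 0.0740 for Cebpb and 0.0930 for Ddit3, and without aldosterone replicate 2 it was 0.0557 for Ddit3. The median of the members was -0.12 with Cebpe removed by the filter at a mean of 4. The causes were not tested. Each fit without 1 array takes the spread of the single array left in that group from the other group.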

Other observations

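Some genes that respond to amino acid shortage and to ATF4 and CHOP differed more between the aldosterone rats than between the groups. Trib3, a pseudokinase gene induced by CHOP, read 6.60 and 4.32 in the aldosterone rats, against 5.92 and 5.80 in the vehicle rats. Asns, which encodes asparagine synthetase, read 6.48 and 4.92 with aldosterone, against 6.28 and 5.49 with vehicle. Chac1, a glutathione-degrading enzyme gene, read 5.72 and 4.27 with aldosterone, against 6.17 and 5.15 with vehicle. With Vldlr, these are 4 of the 17 measured genes of the integrated stress response list, and the aldosterone rats differed by 1.45 to 2.29 in each. Of the 17, 14 had a mean of 4 or more. The SD of the difference between the aldosterone arrays over all rows whose mean reached 4 was 0.577. In 2.89% of those rows the aldosterone arrays differed by 1.4 or more. The limit of 1.4 lies just below the smallest of the 4 differences, so that share is not a test of these genes. Within the same list Nupr1 and Eif2s1 ran the other way between the aldosterone rats. Nupr1 read 6.67 and 7.47 with aldosterone, against 7.23 and 7.04 with vehicle. Eif2s1 read 4.69 and 5.34 with aldosterone, against 5.98 and 4.35 with vehicle, where the rats differed by 1.64. Ddit3 and Atf4 differed by 0.28 and 0.23 between the aldosterone rats. The genes were picked after their values were seen, and the cause was not tested.

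Among the promoters of the other members, that of Cebpe held the AP-1 site TGACTCA once on the opposite strand, at -51. That of Cebpg held CCAAT at -116 and -55 on the opposite strand, and that of Cebpa held none of the motifs searched.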
